A study of Mus musculus with 30 samples.

Results

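The libraries described here are the 10 that carry 24h in their names, 5 from WT and 5 from Cacnb3-/- bone marrow-derived dendritic cells (BMDCs), out of 30 libraries in the series. They were chosen by library name alone, so no measured value entered the choice, and every gene that passed the filter on low counts was compared between the genotypes. BMDCs are dendritic cells grown from mouse bone marrow with granulocyte-macrophage colony-stimulating factor (GM-CSF). All 10 cultures received 500 µM ATP for a pulse of 30 min and were harvested 24 h later, and no untreated culture stands among them. By the authors' methods, WT mice were C57BL/6J from The Jackson Laboratory and Cacnb3-/- mice were kept on C57BL/6N, so the missing gene and the substrain cannot be told apart. The bone marrow came from mice of both sexes, and counts of Xist and of a Y-linked gene put 2 female and 3 male cultures in each genotype. Each library carries the number of 1 culture, and no number occurs in both genotypes. Whether each culture came from a separate mouse is not given, so p-values measure the spread between these cultures.

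Cacnb3 encodes the β3 subunit of voltage-gated calcium channels, an accessory protein inside the cell that regulates the channel pore and also binds the IP3 receptor, the channel through which calcium leaves the endoplasmic reticulum. Dendritic cells take up antigen in tissues and, once activated, move to lymph nodes to present it to T cells. ATP that leaks from damaged cells is a danger signal, read by P2X receptors, which are ion channels, and by P2Y receptors, which are coupled to G proteins. GM-CSF cultures are known to hold macrophage-like cells beside dendritic cells. In bulk RNA, fewer cells of a type and less RNA per cell cannot be told apart.

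Library totals lay between 12988438 and 24168253 counts in WT and between 8237393 and 22535554 in Cacnb3-/- (exact permutation p = 0.198, two-sided), while 3 other properties stood apart between the genotypes. The share of counts on mitochondrial genes was 2.98% ± 1.94 in WT and 9.96% ± 5.43 in Cacnb3-/- (SD, n = 5 each; exact permutation p = 0.0317). The slope of log2 counts on transcript GC content, per 10 percentage points and relative to the mean of the 10 libraries, was 0.26 ± 0.23 in WT and -0.26 ± 0.24 in Cacnb3-/- (SD, n = 5 each; exact permutation p = 0.0238). The slope per doubling of transcript length was 0.045 ± 0.027 in WT and -0.045 ± 0.073 in Cacnb3-/- (log2, SD, n = 5 each; exact permutation p = 0.0317). Over the 15 such tests in the series these 3 permutation p-values each came to 0.0744 after Benjamini-Hochberg adjustment, and the smallest p that 5 against 5 allows is 0.00794. Cacnb3-/- culture s865 stood apart from its group, with the only positive slope of the 5 (0.149) and the lowest mitochondrial share (3.21%), and WT culture s864 had the highest mitochondrial share in WT (5.61%). Within sequencing lanes, named in the column headers, the slopes of WT and Cacnb3-/- were 0.11 and -0.28 in lane 1, 0.46 and 0.15 in lane 2, and 0.20 and -0.40 in lane 3. The lanes hold 2 WT and 1 Cacnb3-/- library, 2 and 1, and 1 and 3. The plot of the library trends shows this order. All further comparisons were made with each library's GC trend kept and again with it removed, and values of single libraries are normalized counts per 1000000 library counts (CPM) with the trend kept, always in the order s846, s850, s855, s856, s864 for WT and s843, s851, s852, s853, s865 for Cacnb3-/-.

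**Figure D1:**
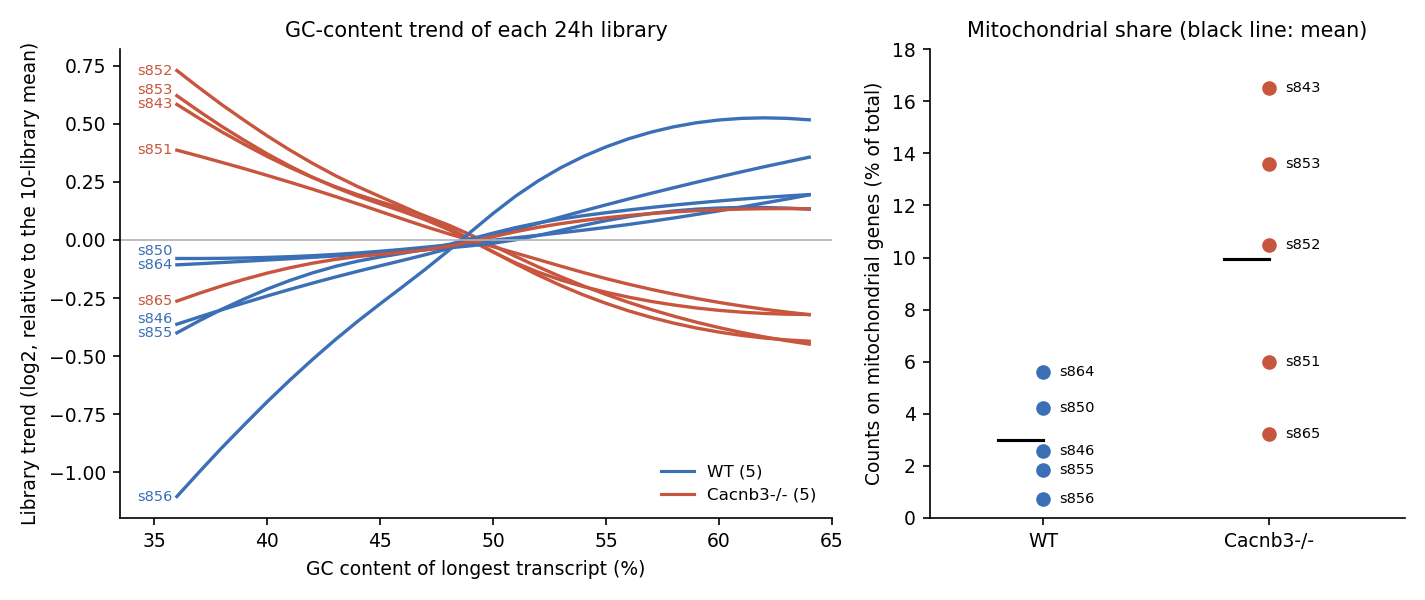
GC-content trend (left; log2 relative to the mean of 10 libraries, against GC content of the longest transcript in %) and share of counts on mitochondrial genes (right; % of the library total, black line at the mean) of the 5 WT and 5 Cacnb3-/- libraries. Of the 5 Cacnb3-/- curves 4 slope down, all 5 WT curves slope up, and Cacnb3-/- culture s865, with a slope of 0.149 per 10 points, lies among the WT curves.

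Cacnb3 itself (chr15:98632220-98644530, GRCm38) was still counted in the Cacnb3-/- libraries. Its normalized counts were 1288, 1617, 1317, 1917 and 2115 CPM in WT and 575, 992, 1137, 856.3 and 1289.8 CPM in Cacnb3-/-. The highest Cacnb3-/- library (s865) lay just above the lowest WT library (s846), so the groups overlapped. The log2 fold change was -0.77 ± 0.23 (SE; edgeR quasi-likelihood test, Benjamini-Hochberg adjusted p = 0.0518) with the trend kept and -0.26 ± 0.21 (adjusted p = 0.429) with it removed, and at 62.03% GC this transcript is among the GC-rich ones. The table counts reads over all exons of a gene and the deleted part is not given, so these counts do not check the knockout. Nnt, a mitochondrial transhydrogenase known to carry a deletion in C57BL/6J, was at 9.71 ± 1.402 CPM in WT and 9.78 ± 0.9199 CPM in Cacnb3-/- (SD, n = 5 each), with a log2 fold change of -0.19 ± 0.14 with the trend removed. These counts do not show a substrain difference, and the substrain of the cultures was not tested.

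Genes near Cacnb3 lay in both directions. Of 83 genes in the table within 1 Mb of it, 37 were tested, and with the trend removed 5 had a higher and 5 a lower level in Cacnb3-/- at unadjusted p under 0.05, near the 13.2% and 12.5% of all genes. Fkbp11, which encodes a peptidyl-prolyl isomerase of the endoplasmic reticulum, was at 0.542, 0.5505, 0.727, 0.777 and 1.81 CPM in WT and 1.603, 1.88, 1.14, 1.68 and 3.57 CPM in Cacnb3-/-. Its log2 fold change was 1.40 ± 0.39 (SE, trend removed; edgeR adjusted p = 0.132), and WT culture s864 lay above 3 of the Cacnb3-/- libraries. Spats2 was the only one of the 37 whose groups did not overlap with the trend removed, at 23.2 ± 1.76 CPM in WT and 25.8 ± 0.575 CPM in Cacnb3-/- (log2 fold change 0.30 ± 0.11). On the other side lay Arf3, a small GTPase of the Golgi (374 ± 53.5 and 253 ± 55.5 CPM; log2 fold change -0.45 ± 0.14), and Tuba1a, an α-tubulin (201 ± 51.4 and 127 ± 21.8 CPM; -0.41 ± 0.15). Kcnh3, a voltage-gated potassium channel, was at 26.4 ± 9.86 and 12.6 ± 6.63 CPM (-0.57 ± 0.24), and Adcy6, an adenylyl cyclase, at 660.000000 ± 116 and 401 ± 121 CPM (-0.40 ± 0.18). The edgeR adjusted p lay between 0.132 and 0.194 for these genes, so none passed the threshold.

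Across all genes, the edgeR quasi-likelihood test called no gene, where a call required a 2-fold difference or more together with an adjusted p under 0.05. This held for 12706 genes with the trend kept (0% called, smallest adjusted p = 0.0515) and for 12589 genes with it removed (0% called, smallest adjusted p = 0.132). The zero stood next to many small unadjusted p-values. With the trend kept, 2558 genes (20.1%) were higher and 2319 (18.3%) lower in Cacnb3-/- at unadjusted p under 0.05, and 4091 genes had an adjusted p under 0.1. With the trend removed the numbers were 1656 (13.2%) and 1571 (12.5%), and no gene had an adjusted p under 0.1. DESeq2 on the same tables called 539 of 11967 genes (4.5%; 343 higher and 196 lower in Cacnb3-/-) with the trend kept and 139 of 9904 (1.4%; 100 higher and 39 lower) with it removed. The groups did not overlap at 385 genes with Cacnb3-/- above (3.03%) and 426 with Cacnb3-/- below (3.35%) with the trend kept, and at 235 (1.87%) and 234 (1.86%) with it removed. These calls also depended on Cacnb3-/- culture s865. Without it edgeR called 1129 genes with the trend kept and 363 with it removed (205 higher and 158 lower in Cacnb3-/-).

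GC content sorted the genotype difference. With the trend kept, the median log2 fold change was 0.59 over the 678 genes under 40% GC, 0.38 over the next 2556 genes, 0.10 over 3545, -0.20 over 3431, -0.40 over 2021 and -0.50 over the 358 genes at 60% GC or more. In the class under 40% GC, 419 genes were higher and 3 lower in Cacnb3-/- at unadjusted p under 0.05, and in the class at 60% or more 9 were higher and 180 lower. After removal the class medians lay between -0.02 and 0.04. Pearson's correlation of log2 fold change with GC content across genes, which are not independent replicates, went from -0.576 to -0.0142. Of the genes at unadjusted p under 0.05, 2279 were shared, which is 46.7% of those with the trend kept and 70.6% of those with it removed, and 13 of them had opposite signs. DESeq2 calls overlapped at 95 genes, 17.6% of the calls with the trend kept and 68.3% of those with it removed. The box plot by GC class shows the slope and its removal.

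**Figure D2:**
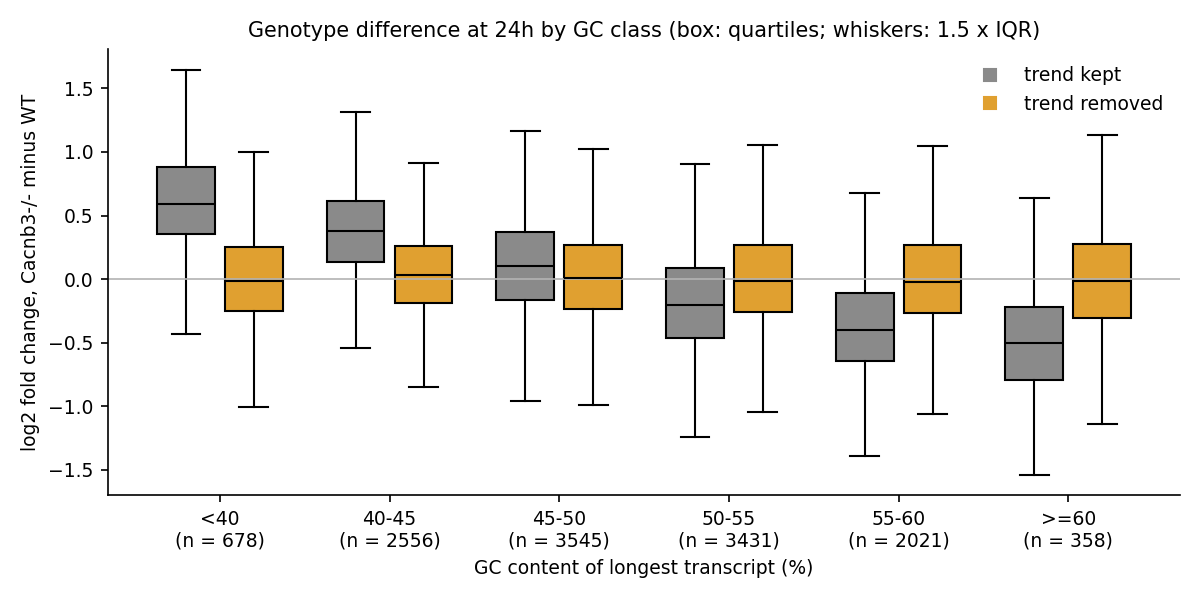
Log2 fold change of each tested gene, Cacnb3-/- minus WT at 24h, by GC content of the longest transcript in %, with the GC trend kept (grey) and removed (orange). Boxes give quartiles, the inner line is the median and whiskers reach 1.5 interquartile ranges. Grey medians run from 0.59 to -0.50 and orange medians stay near 0.

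The genes that moved most when the trend was removed show what the correction does to single genes. Phf14, which encodes a histone-binding protein, was at 26.7, 34.02, 29.6, 24.2 and 33.9 CPM in WT and 59.99, 36.8, 44.5, 46.7 and 34.96 CPM in Cacnb3-/-. Every Cacnb3-/- library lay above every WT library, and its log2 fold change was 0.58 ± 0.17 with the trend kept and -0.46 ± 0.21 with it removed. At Rnf138, a ubiquitin ligase with a role in DNA repair (27.1 ± 5.05 and 50.1 ± 13.2 CPM), it went from 0.88 ± 0.20 to -0.16 ± 0.15, and at Lrif1, a chromatin protein (18.8 ± 8.502 and 41.2 ± 15.7 CPM), from 1.12 ± 0.36 to 0.13 ± 0.15. Gm17066, a predicted gene that shares 37.1% of its exon bases with Rbm26, and the mitochondrial transfer RNA gene mt-Ta kept a positive value, 2.41 ± 0.62 against 1.30 ± 0.43 and 3.24 ± 0.77 against 2.14 ± 0.61. The mt-Ta counts were 8.59, 7.76, 6.42, 2.25 and 19.98 CPM in WT and 213, 16.3, 53.8, 134 and 13.8 CPM in Cacnb3-/-, highest in s843 and lowest, within the WT range, in s865. Among GC-rich genes Shb, an adaptor of tyrosine kinase signalling, was at 20.2, 19.3, 21.8, 29.9 and 19.1 CPM in WT and 10.4, 13.4, 17.6, 15.9 and 16.6 CPM in Cacnb3-/-. All Cacnb3-/- libraries lay below WT, and the log2 fold change of -0.57 ± 0.18 shrank to 0.0033 ± 0.15. Znhit2 went from -0.45 ± 0.14 to 0.12 ± 0.10, Them6 from -0.996 ± 0.30 to -0.43 ± 0.25 and Crocc, a component of the ciliary rootlet, from -0.62 ± 0.26 to -0.06 ± 0.20. Dennd1a, an exchange factor for the GTPase Rab35, went the other way, from -0.39 ± 0.18 to -1.004 ± 0.33, with 29.7, 29.8, 32.2, 33.03 and 24.1 CPM in WT and 20.04, 22.7, 18.2, 18.97 and 33.2 CPM in Cacnb3-/-, where s865 lay just above the highest WT library.

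The named differences were taken from genes with unadjusted p under 0.05 and non-overlapping groups in both fits and at least 1 CPM in the higher genotype, of which 139 were higher and 149 lower in Cacnb3-/-. Their edgeR adjusted p lay between 0.0515 and 0.0623 with the trend kept and between 0.132 and 0.133 with it removed for the 24 genes named here, the 12 largest in each direction. DESeq2 with the trend removed called 4 of the 12 higher and 7 of the 12 lower genes. It gave an adjusted p to 9904 of 12588 genes. Where it gave one to the 24, the highest was 0.0087 among the higher and 0.038 among the lower genes. The genes it did not call were thus left without an adjusted p or fell short of 2-fold. Without culture s865, edgeR called 10 and 10, with adjusted p from 0.0316 to 0.0710 over the 24. All 24 had the same direction within each of the 3 lanes with the trend removed. This follows from choosing genes without overlap, so it is no further support.

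Higher in Cacnb3-/- stood a transcription factor and signalling regulators. Maf, a transcription factor known from macrophages and T cells (chr8:115682942-115707794), was at 9.72, 12.99, 7.39, 11.7 and 13.5 CPM in WT and 56.2, 19.1, 27.03, 36.9 and 14.4 CPM in Cacnb3-/-. Its lowest Cacnb3-/- library, s865, lay just above the highest WT library, s864, and the log2 fold change was 1.47 ± 0.33 with the trend kept and 1.35 ± 0.32 with it removed (SE). Dusp6, a phosphatase that switches off ERK, was at 12.5, 13.7, 10.1, 17.5 and 10.5 CPM in WT and 58.9, 27.8, 23.1, 32.7 and 19.3 CPM in Cacnb3-/- (log2 fold change 1.27 ± 0.27 with the trend removed). Spry2, an inhibitor of receptor tyrosine kinase signalling, was at 1.17, 0.661, 1.29, 1.48 and 0.5099 CPM and 6.01, 1.63, 2.02, 2.17 and 1.48 CPM (1.28 ± 0.43). In these genes s843 was the highest Cacnb3-/- library, at Spry2 by a wide margin. Arhgap6, a GTPase-activating protein, was at 5.38, 9.52, 7.96, 7.93 and 9.04 CPM in WT and 27.5, 17.04, 13.6, 12.7 and 14.3 CPM in Cacnb3-/- (1.15 ± 0.23). Bcl2, which blocks apoptosis at mitochondria, was at 1.17, 1.65, 1.01, 0.6995 and 2.32 CPM and 3.87, 3.56, 3.95, 3.65 and 2.51 CPM (1.19 ± 0.29), with s865 the lowest of its group.

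Receptors and an iron carrier lay on the same side. Trf, the iron transport protein transferrin, was at 25.1, 24.99, 15.1, 21.6 and 24.98 CPM in WT and 84.6, 33.4, 35.98, 52.5 and 38.4 CPM in Cacnb3-/- (log2 fold change 1.29 ± 0.27 with the trend removed), although 63.5% of its exon bases are shared with another gene of the table on the same strand. C5ar2, a receptor for complement fragment C5a, was at 1.85, 2.53, 1.01, 1.87 and 2.596 CPM and 6.55, 5.09, 3.598, 3.85 and 5.09 CPM (1.27 ± 0.28). Gpr34, a G protein-coupled receptor for lysophosphatidylserine, was at 1.13, 2.37, 0.565, 0.6995 and 1.85 CPM and 6.81, 3.85, 6.41, 5.83 and 3.08 CPM, and its log2 fold change of 1.95 ± 0.39 was 1.23 ± 0.29 once the trend was removed. C5ar2 and Gpr34 showed less of the spread seen at Maf, and s865 was the lowest Cacnb3-/- library at Gpr34 only. Cd300c, an activating receptor of myeloid cells, was at 0.4696 ± 0.194 CPM in WT and 1.05 ± 0.228 CPM in Cacnb3-/- (SD, n = 5 each; 1.28 ± 0.34). The predicted genes Gm16124, Gm20703 and Gm27003 complete the 12, with log2 fold changes of 1.74 ± 0.37, 1.46 ± 0.31 and 1.36 ± 0.30 and mean levels of 1.02, 3.78 and 1.03 CPM in Cacnb3-/-.

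Lower in Cacnb3-/- stood a cytokine subunit and a secreted nuclease. Il12b, the p40 subunit shared by the T cell-polarizing cytokines IL-12 and IL-23 (chr11:44400063-44414033), was at 148, 157, 409, 187 and 133 CPM in WT and 25.7, 98.1, 129, 86.4 and 77.1 CPM in Cacnb3-/-. The groups did not overlap, WT culture s855 was the highest and Cacnb3-/- culture s843 the lowest, and the log2 fold change was -1.31 ± 0.40 with the trend kept and -1.49 ± 0.40 with it removed (SE). Dnase1l3, a nuclease secreted by dendritic cells and macrophages that degrades extracellular DNA, was at 2.53, 3.63, 3.55, 4.66 and 2.13 CPM and 0.134, 1.93, 0.965, 0.296 and 0.739 CPM (-1.91 ± 0.47). Ssc5d, a soluble scavenger receptor, was at 1.45 ± 0.577 CPM in WT and 0.452 ± 0.254 CPM in Cacnb3-/- (SD, n = 5 each; -1.11 ± 0.37). Tspan33, a tetraspanin of the cell membrane, was at 52.6, 60.8, 72.4, 79.7 and 56.6 CPM and 17.4, 39.8, 33.1, 27.1 and 47.6 CPM (-1.17 ± 0.27), with s865 the highest of the Cacnb3-/- libraries.

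Regulators of RNA and signalling followed. Srsf4, a splicing factor, was at 11.8, 11.7, 14.4, 17.6 and 11.6 CPM in WT and 2.54, 8.74, 5.53, 5.83 and 10.5 CPM in Cacnb3-/- (log2 fold change -1.10 ± 0.32 with the trend removed). Cnot3, a subunit of the CCR4-NOT deadenylase that removes poly(A) tails, was at 37.1, 30.9, 42.4, 46.8 and 28.04 CPM and 10.7, 19.9, 15.01, 13.7 and 27.6 CPM (-0.997 ± 0.22). At both genes s865 lay just below the lowest WT library, while s843 lay lowest of all. Strada, a pseudokinase that activates the kinase LKB1, was at 31.4 ± 3.93 CPM and 20.4 ± 2.56 CPM (-0.62 ± 0.13 kept, -1.08 ± 0.21 removed), and Cth, the cystathionine γ-lyase of cysteine synthesis, at 1.01 ± 0.255 and 0.495 ± 0.113 CPM (-1.17 ± 0.29). Garre1, Gm26902 and Gm19684 had log2 fold changes of -1.44 ± 0.48, -1.49 ± 0.47 and -1.06 ± 0.27. Genes on the opposite strand cover 40.5%, 43.0%, 39.5% and 23.3% of the exon bases of Garre1, Srsf4, Gm19684 and Cnot3, and because counting did not use strand, reads on those bases were left out of both genes' counts. The plot of normalized counts per library shows the spread behind these differences.

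**Figure D3:**
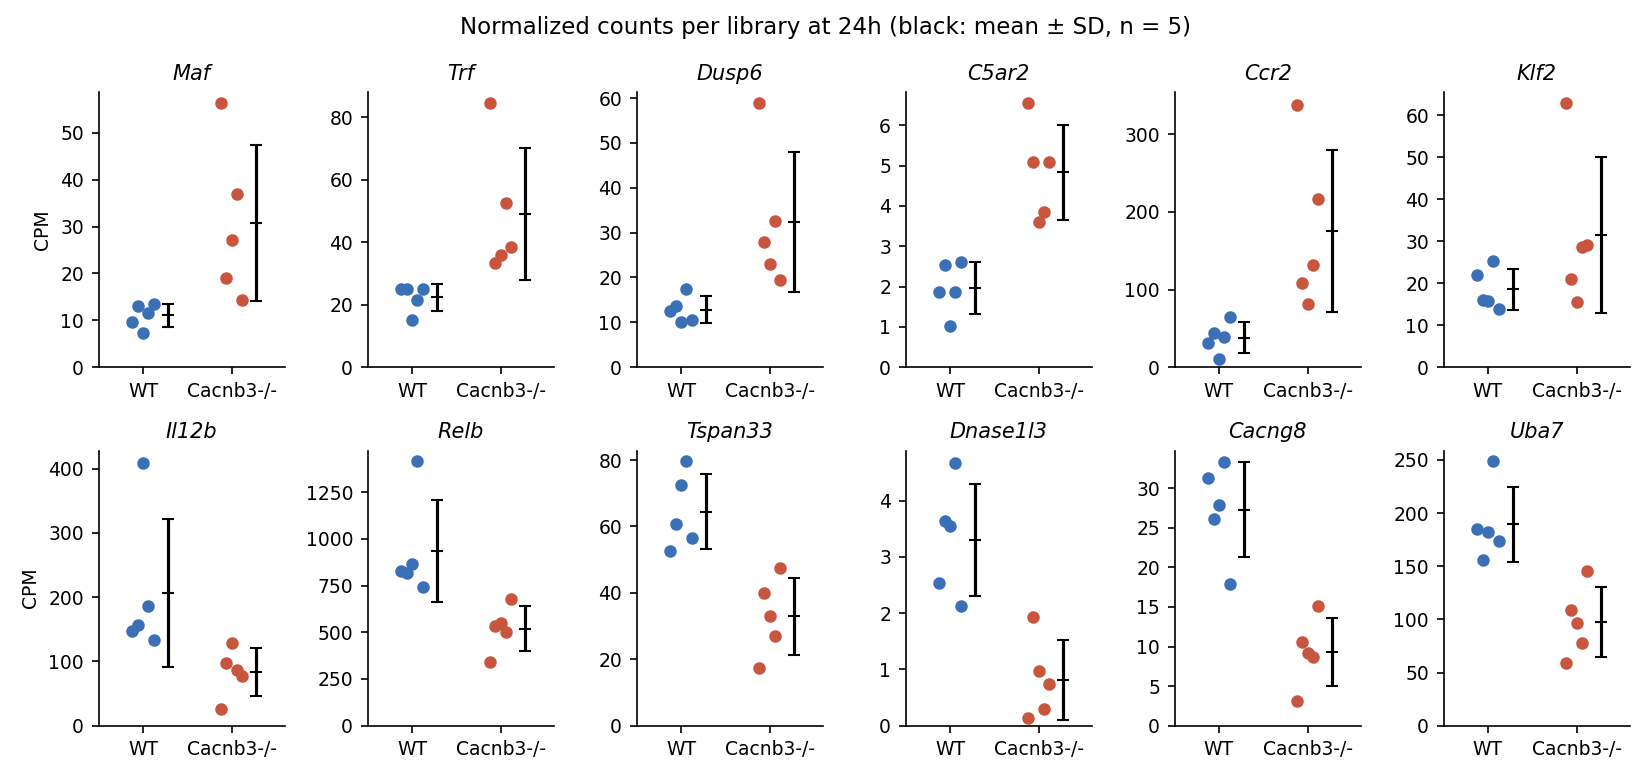
Normalized counts (CPM, trend kept) of 12 named genes in the 5 WT and 5 Cacnb3-/- libraries, 1 point per library, black bars mean ± SD. At Maf, Trf, Dusp6, C5ar2 and Ccr2 every Cacnb3-/- point lies above WT, at Il12b, Relb, Tspan33, Dnase1l3, Cacng8 and Uba7 every one lies below, and at Klf2 the points overlap.

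Subunits of voltage-gated calcium channels were mostly low. Of 26 genes listed, 13 passed the filter, and with the trend removed their median log2 fold change was -0.06, with 0 higher and 1 lower at unadjusted p under 0.05, against 13.2% and 12.5% over all genes. The 1 gene was Cacng8, a γ subunit that also acts as an accessory protein of AMPA receptors (chr7:3390683-3415648). Its counts were 31.3, 26.1, 27.9, 33.3 and 17.8 CPM in WT and 3.07, 10.5, 9.21, 8.69 and 15.2 CPM in Cacnb3-/-. The groups did not overlap, s864 was the lowest WT and s865 the highest Cacnb3-/- library, and the log2 fold change was -1.52 ± 0.31 with the trend kept and -1.01 ± 0.25 with it removed (SE; edgeR adjusted p = 0.0515 and 0.132). Its neighbour on chromosome 7, Cacng7, was at 1.62 ± 0.537 and 0.865 ± 0.215 CPM (-0.44 ± 0.31 with the trend removed, overlapping groups).

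Other calcium and ATP signalling genes split in both directions. With the trend removed, 13.2% of all genes were higher and 12.5% lower at unadjusted p under 0.05. Among 11 tested genes for IP3 receptors and phospholipase C, 1 was higher and 1 lower. Itpr1, which encodes IP3 receptor type 1, was at 17.3, 12.1, 18.4, 21.6 and 19.3 CPM in WT and 29.9, 19.02, 25.5, 27.5 and 21.98 CPM in Cacnb3-/- (log2 fold change 0.51 ± 0.17, adjusted p = 0.132 by edgeR). Itpr3, the type 3 receptor, was at 17.4, 13.8, 18.2, 26.4 and 17.1 CPM and 8.55, 10.5, 8.43, 9.68 and 17.4 CPM (-0.37 ± 0.15, edgeR adjusted p = 0.169). Both had overlapping groups, and s865 alone among the Cacnb3-/- libraries reached the WT level of Itpr3. Genes of calcium entry and pumps counted 3 higher and 3 lower of 16 tested (median -0.05). Atp2b1, a plasma membrane calcium pump, was at 95.4 ± 17.2 and 146 ± 18.2 CPM without overlap (0.43 ± 0.12). Orai1, the pore of store-operated calcium entry, was at 34.6 ± 6.41 and 34.5 ± 6.88 CPM, level with the trend kept and at 0.46 ± 0.14 with it removed. Of 9 tested P2X and P2Y receptors, 0 were higher and 1 lower, and their median was 0.39 with the trend kept and 0.02 with it removed. That receptor was P2rx4, an ATP-gated channel (203 ± 47.6 and 149 ± 43.5 CPM, -0.49 ± 0.21), while P2rx7, the channel opened by high ATP, was at 10.5 ± 5.01 and 14.6 ± 5.896 CPM (0.56 ± 0.35, edgeR adjusted p = 0.316).

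Genes of migratory dendritic cells, a list of the activation program that accompanies movement to lymph nodes, had a median log2 fold change of -0.37 with the trend removed (median of all genes 0.00136). Of the 37 tested, 0 were higher and 12 lower at unadjusted p under 0.05, or 32.4% against 12.5% of all genes, and with the trend kept 4 were higher and 16 lower, or 43.2% against 18.3% (median -0.46). With the mitochondrial share as a covariate, added after seeing the data, 1 of the 37 (2.7%) was lower in either fit. Few genes were lower in all with this covariate, 0.6% with the trend removed and 1.53% with it kept. Ccl5, a chemokine that draws T cells and monocytes, was at 7422, 5784, 6982, 9301 and 4437 CPM in WT and 2657, 4294, 3943, 3409.8 and 3508 CPM in Cacnb3-/- (log2 fold change -0.93 ± 0.22 kept and -0.69 ± 0.19 removed). Relb, the NF-κB subunit of dendritic cell maturation, was at 828, 817, 864.2, 1419.9 and 744 CPM and 340.3, 532, 548, 499 and 676 CPM (-0.85 ± 0.22 kept and -0.51 ± 0.16 removed). Both were separated without overlap with the trend kept, as Il12b was, and Ccl5 overlapped once it was removed. Over all genes, 13.2% were higher and 12.5% lower with the trend removed. The adhesion list, 24 genes, had 4 higher and 5 lower (median 0.01), among them Selplg, the P-selectin ligand used in rolling on vessel walls (1083 ± 172 and 673 ± 175 CPM, -0.64 ± 0.17), Itgb3, an integrin chain (8.38 ± 2.28 and 12.1 ± 2.04, 0.69 ± 0.21), and Vcam1 (27.5 ± 4.44 and 25.8 ± 6.46, -0.57 ± 0.20). In the actin cytoskeleton list 2 were higher and 8 lower of 44 (median -0.10), with Arpc5, a subunit of the actin-branching Arp2/3 complex, at 564 ± 21.8 and 855.6 ± 216 CPM (0.56 ± 0.16) and Myl12a, a myosin light chain, at 357 ± 78.9 and 265 ± 51.8 CPM (-0.69 ± 0.21).

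Dendritic cell identity genes were all detected, with summed levels of 23024 to 40322 CPM in WT and 17684 to 31066 CPM in Cacnb3-/-. With the trend removed, 0 were higher and 4 lower of 15 (median -0.35), against 12.5% of all genes. The lower count was 1 without WT culture s855 and 7 without s865. Over all genes, 1001 to 2055 were lower on leaving out 1 library. With lane as a covariate it was 2 (13.3%, beside 8.61% of all genes). With mitochondrial share it was 0, beside 0.6% of all genes. Both covariates were added after seeing the data. Ciita, the master regulator of MHC class II, was at 78.3, 67.1, 140.005, 162 and 43.3 CPM in WT and 16.3, 60.1, 21.3, 29.04 and 65.5 CPM in Cacnb3-/- (log2 fold change -1.07 ± 0.39, edgeR adjusted p = 0.141). Irf4 and Spi1, transcription factors of dendritic and myeloid cells, were at 171 ± 37.3 and 137 ± 13.5 CPM (-0.41 ± 0.15) and at 318 ± 72.1 and 179 ± 77.9 CPM (-0.41 ± 0.17). All of these overlapped, with s851 and s865 the Cacnb3-/- libraries nearest to WT for Ciita. Antigen presentation divided. With the trend kept, 3 were higher and 5 lower of 16 in the class II list (median -0.20). In the class I list it was 2 and 10 of 18 (-0.38), beside 20.1% and 18.3% of all genes. With the trend removed, the counts were 1 and 3 in class II (-0.11) and 1 and 4 in class I (-0.18). H2-DMb1, which helps load peptide on class II, was at 109 ± 11.002 and 143 ± 38.8 CPM (0.66 ± 0.19) and H2-Eb2 at 159 ± 65.3 and 101 ± 35.4 CPM (-0.98 ± 0.37). Pdia3, a chaperone of class I assembly, was at 327 ± 83.9 and 542 ± 105 CPM (0.57 ± 0.18), and Psmb8, an immunoproteasome subunit, at 437 ± 122 and 286 ± 15.2 CPM (-0.39 ± 0.14). Of the 25 transcription factors of dendritic cells 7 were higher and 5 lower (median 0.18), with Rel, another NF-κB subunit, at 97.2 ± 14.8 and 73.05 ± 20.03 CPM (-0.69 ± 0.23).

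Interferon-stimulated genes, which cells switch on when interferon binds its receptor, had the lowest median of the 46 lists with the trend removed. It was -0.52, with 0 higher and 12 lower of 51 tested at unadjusted p under 0.05, or 23.5% against 12.5% of all genes. With the trend kept it was -0.42, with 0 higher and 10 lower, or 19.6%, near the 18.3% of all genes. Uba7, the activating enzyme of the ubiquitin-like protein ISG15, was at 185, 156, 182, 249 and 173 CPM in WT and 58.9, 109, 97.1, 77.3 and 146 CPM in Cacnb3-/- without overlap (log2 fold change -0.64 ± 0.17). Parp14, an enzyme of ADP-ribosylation, and Dtx3l, an enzyme of ubiquitylation, were at 143 ± 48.2 and 95.1 ± 16.3 CPM (-0.75 ± 0.24) and at 82.4 ± 26.6 and 55.7 ± 14.7 CPM (-0.74 ± 0.25), both overlapping. The per-library medians of the list, as log2 deviations from the mean of the 10 libraries, were 1.11, -0.36, 0.69, 0.51 and -1.08 in WT and 0.49, -0.01, -0.50, -0.27 and -0.45 in Cacnb3-/-. WT spanned the whole range of both groups, with s846 at the top and s864 at the bottom. Cacnb3-/- minus WT was 0.71 within lane 1, -1.26 within lane 2 and -0.79 within lane 3, so the direction did not hold in lane 1. Without 1 library at a time, between 5 and 31 members were lower, 5 without WT culture s855, 6 without s846 and 31 without s864. Over all genes, 1001 to 2055 were lower on leaving out 1 library.

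Of the 12 lower members, 10 had a promoter in RefSeq (GRCm38.p6; 250 bases before to 50 after the gene start), and 4 of these held GAAA, any 2 bases and GAAA on either strand, a core of the interferon-stimulated response element. These letters stood in 22 of 38 promoters of the whole list (57.9%), in 305 of 9661 promoters of tested genes (3.16%) and in 943 of 27025 promoters in all (3.49%). A match is only a description of the sequence. The 4 are printed because they pair a lower level with the motif, and they were chosen for it after their values were seen. Capitals mark the motif or its reverse complement.
Slfn5 (chr11:82951852-82952151, + strand): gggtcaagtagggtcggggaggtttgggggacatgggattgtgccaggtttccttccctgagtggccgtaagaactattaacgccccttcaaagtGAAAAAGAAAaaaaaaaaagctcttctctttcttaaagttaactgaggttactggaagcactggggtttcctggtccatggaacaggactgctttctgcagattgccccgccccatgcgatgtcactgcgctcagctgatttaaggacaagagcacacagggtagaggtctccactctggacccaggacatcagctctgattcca
Ifih1 (chr2:62646206-62646505, - strand): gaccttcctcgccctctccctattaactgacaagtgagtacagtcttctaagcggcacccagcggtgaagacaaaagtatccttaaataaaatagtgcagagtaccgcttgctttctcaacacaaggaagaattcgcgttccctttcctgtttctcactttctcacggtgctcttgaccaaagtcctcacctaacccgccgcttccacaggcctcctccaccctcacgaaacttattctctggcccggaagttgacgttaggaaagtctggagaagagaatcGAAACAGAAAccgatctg
Gbp2 (chr3:142620413-142620712, + strand): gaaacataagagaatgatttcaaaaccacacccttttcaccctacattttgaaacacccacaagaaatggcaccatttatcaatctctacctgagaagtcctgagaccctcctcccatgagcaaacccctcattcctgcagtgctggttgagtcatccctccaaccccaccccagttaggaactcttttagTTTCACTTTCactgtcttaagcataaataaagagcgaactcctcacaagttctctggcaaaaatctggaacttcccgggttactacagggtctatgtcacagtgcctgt
Stat2 (chr10:128270248-128270547, + strand): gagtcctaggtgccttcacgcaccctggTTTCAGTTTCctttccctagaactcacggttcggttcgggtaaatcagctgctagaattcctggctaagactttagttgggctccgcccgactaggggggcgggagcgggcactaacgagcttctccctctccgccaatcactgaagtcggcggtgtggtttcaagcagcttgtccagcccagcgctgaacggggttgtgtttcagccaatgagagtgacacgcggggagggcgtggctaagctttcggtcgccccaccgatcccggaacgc
Slfn5, a Schlafen family protein, was at 63.1, 34.3, 92.4, 73.1 and 16.3 CPM in WT and 8.82, 37.3, 10.97, 13.04 and 37.1 CPM in Cacnb3-/- (log2 fold change -1.58 ± 0.54 with the trend removed, edgeR adjusted p = 0.133). Ifih1, the cytosolic RNA sensor MDA5, was at 49.6, 36.9, 57.4, 40.8 and 24.1 CPM and 33.7, 46.6, 35.9, 27.95 and 31.5 CPM (-0.63 ± 0.23). Gbp2, a guanylate-binding protein, was at 248, 212, 384, 242 and 121 CPM and 151, 237, 139.8, 145 and 174 CPM (-0.65 ± 0.26), and Stat2, which carries the interferon signal to the nucleus, at 223, 101, 224, 157 and 70.2 CPM and 87.5, 102, 80.9, 73.4 and 80.3 CPM (-0.66 ± 0.27). At all 4 genes s855 was the highest and s864 the lowest WT culture, and the genotypes overlapped.

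Cytokines, chemokines and their receptors held some of the widest single differences. Ccr2, the receptor through which monocytes follow CCL2, was at 30.9, 43.6, 10.7, 39.1 and 65.2 CPM in WT and 338, 109, 81.1, 132 and 217 CPM in Cacnb3-/-. Every Cacnb3-/- library lay above WT, with a log2 fold change of 2.21 ± 0.47 with the trend kept, and 1.69 ± 0.49 with it removed, where the groups overlapped (SE; edgeR adjusted p = 0.0515 and 0.132). Ccr6 and Ccr4, receptors for CCL20 and for CCL17 and CCL22, lay on the other side at 1.94 ± 1.18 and 0.428 ± 0.479 CPM (-1.78 ± 0.65) and at 2.02 ± 0.792 and 1.01 ± 0.534 CPM (-1.04 ± 0.38), and Ccr6 was not counted in 2 Cacnb3-/- libraries. The receptor list had 3 higher and 2 lower of 15 (median 0.35), chemokines 4 and 0 of 16 (0.02) and cytokines 2 and 2 of 16 (-0.32), against 13.2% higher and 12.5% lower of all genes. Chemokines had 0 and 0 with GC content and length in the correction (-0.05) and 3 and 0 with lane as a covariate (-0.03), so that the sign of their median was not stable. Il18, a cytokine released by inflammasomes, was at 4.81 ± 1.01 and 8.34 ± 2.83 CPM (0.63 ± 0.24). Ppbp and Pf4, chemokines of platelets and their precursors, were at 7.54 ± 2.35 and 15.4 ± 3.33 CPM (0.70 ± 0.24) and at 41.1 ± 13.3 and 94.6 ± 42.6 CPM (0.73 ± 0.31), and they are 2 of the 4 tested genes of the erythroid and platelet list.

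C-type lectins, surface receptors that bind sugars of microbes, depended on the GC trend. With the trend kept 11 were higher and 0 lower of 16 (median 0.79; 20.1% of all genes were higher), and with it removed 3 and 0 (0.39), a share of 18.8% that is near the 13.2% of all genes. Clec10a was at 7.91, 6.94, 2.18, 6.995 and 11.1 CPM in WT and 40.1, 8.498, 13.3, 24.003 and 20.9 CPM in Cacnb3-/- (log2 fold change 1.64 ± 0.44 with the trend removed), and its relative Mgl2 at 6.15, 21.6, 3.19, 10.03 and 13.9 CPM and 33.9, 19.9, 12.3, 20.5 and 40.5 CPM (1.28 ± 0.46). Both overlapped, by 1 library at Clec10a. Clec9a, which detects dead cells, was at 0.808 ± 0.193 and 1.63 ± 0.666 CPM (0.72 ± 0.30). Among costimulatory and checkpoint genes, 2 higher and 1 lower of 21, Sirpa, a receptor for the marker of self CD47, was at 474, 504, 465, 533 and 558 CPM and 771, 569.5, 519.8, 589 and 693 CPM (0.67 ± 0.14). Cd200r1, an inhibitory receptor, was at 20.2, 35.3, 17.1, 24.2 and 43.1 CPM and 97.8, 61.95, 64.1, 55.9 and 62.5 CPM (0.90 ± 0.24). Neither of the inhibitory receptors overlapped with the trend removed, while the activating receptor Cd40, at 274 ± 71.3 and 186 ± 44.3 CPM (-0.56 ± 0.21), did.

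Innate sensing and stress genes gave small lists of either direction, beside 13.2% higher and 12.5% lower over all genes with the trend removed. Ly86, the partner of the receptor CD180, was at 60.4, 67.7, 50.5, 56.7 and 71.6 CPM in WT and 194, 91.9, 91.9, 125 and 82.4 CPM in Cacnb3-/- without overlap (log2 fold change 0.85 ± 0.21), and Tlr9, the sensor of CpG DNA, at 22.5, 23.8, 31.3, 51.1 and 20.5 CPM and 1.87, 14.97, 4.74, 4.64 and 23.2 CPM (-1.22 ± 0.46), where s865 lay within the WT range. The Toll-like receptor list had 2 higher and 1 lower of 26 (median -0.07) and the inflammasome list 1 and 2 of 20 (-0.02). Casp4 and Casp1, its lower genes, were at 41.4 ± 16.05 and 41.6 ± 7.26 CPM (-0.74 ± 0.28) and at 48.2 ± 11.1 and 55.4 ± 9.41 CPM (-0.39 ± 0.18), so their difference appeared only on the corrected scale. Immediate early genes counted 8 higher and 1 lower of 34 (median 0.17) with the trend removed. With it kept they counted 6 and 5 (-0.13), beside 20.1% and 18.3% of all genes, so the sign of their median depended on the correction. With the trend removed and lane as a covariate, added after seeing the data, they counted 4 and 3 (-0.01), beside 7.7% and 8.61% of all genes. Myc was at 4.44 ± 0.956 and 7.64 ± 2.21 CPM (1.02 ± 0.26), Fos at 17.97 ± 4.85 and 30.3 ± 13.98 CPM (0.91 ± 0.30), and Klf2, a factor of quiescence and trafficking, at 21.9, 15.96, 15.7, 25.3 and 13.9 CPM and 63.1, 20.9, 15.5, 28.7 and 29.2 CPM (1.33 ± 0.34), with s843 far above the rest. Chaperones had 5 higher and 3 lower of 17 (0.06), with Hspa8 at 453 ± 177 and 263 ± 67.9 CPM (-0.996 ± 0.29) and Bag3 at 60.5 ± 7.33 and 68.7 ± 7.498 CPM (0.55 ± 0.17), and the stress response list 4 and 4 of 26 (-0.03), with Atf4 at 314 ± 67.01 and 442 ± 165 CPM (0.92 ± 0.28) and its partner Ddit3 at 27.4 ± 5.73 and 18.7 ± 2.39 CPM (-0.54 ± 0.15).

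Mitochondrially encoded genes had the highest median of the lists. It was 1.78 with the trend kept (8 higher and 0 lower of 8) and 1.01 with it removed (5 and 0, against 13.2% of all genes higher). With the trend removed, the higher count was 0 with lane as a covariate and 1 with GC content and length, and on leaving out 1 library it lay between 0, without Cacnb3-/- culture s843, and 7, without WT culture s864 or Cacnb3-/- culture s865. The summed level lay between 5934 and 44734 CPM in WT and between 25267 and 120279 CPM in Cacnb3-/-. mt-Nd1, a subunit of complex I, was at 2302, 4719.9, 1836, 601 and 5602 CPM in WT and 17178, 6458, 12019, 14331 and 3059 CPM in Cacnb3-/- (1.17 ± 0.44). mt-Nd4 was at 1734 ± 1102 and 6332 ± 3707 CPM (1.03 ± 0.38) and mt-Co1, the core of cytochrome oxidase, at 8996 ± 5238 and 25197 ± 12197 CPM (0.98 ± 0.39). The groups overlapped, with WT cultures s850 and s864 above s865, and the lane 1 difference of the list median was -0.20 against 0.73 and 1.94 in lanes 2 and 3. Nuclear subunits of the respiratory chain split into 22 higher and 12 lower of 77 (median 0.02), with Atp5mj at 52.1 ± 13.1 and 114 ± 42.6 CPM (1.13 ± 0.27) and Ndufa5 at 22.04 ± 5.86 and 48.7 ± 21.4 CPM (1.19 ± 0.30). Mitochondrial ribosomal proteins counted 12 and 8 of 74 (0.01), with Mrpl18 (26.1 ± 0.895 and 38.9 ± 10.6 CPM, 0.87 ± 0.21) and Mrps34 (15.5 ± 6.95 and 6.43 ± 2.78, -0.76 ± 0.24) on opposite sides. Mrps34 shares 63.4% of its exon bases with Mapk8ip3 and 37.0% with Nme3. Reads on shared bases were left out, so its counts are uncertain.

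Genes for making and processing RNA and protein were the larger lists. Over all genes, 13.2% were higher and 12.5% lower with the trend removed, and 20.1% and 18.3% with it kept. Cytosolic ribosomal proteins had 18 higher and 6 lower of 81 (median 0.09) with the trend kept. With it removed they had 22 and 6 (median 0.23, and 0.08 once transcript length was modelled beside GC). Lane differences of the per-library median were then -0.13, 0.03 and 0.56, so the direction did not hold in lane 1. Rpl27a was at 42.5, 43.98, 24.6, 28.5 and 42.97 CPM in WT and 92.6, 51.4, 79.6, 92.8 and 44.5 CPM in Cacnb3-/- without overlap (0.98 ± 0.24), Rpl13 at 17.3 ± 6.19 and 42.4 ± 16.9 CPM (1.45 ± 0.36) and Rpl14 at 103 ± 28.1 and 171 ± 52.2 CPM (1.13 ± 0.29). These genes have near-identical processed copies in the genome, as Gapdh does, so reads may be lost to or split among copies and their counts are uncertain. Spliceosome and SR proteins had 12 higher and 5 lower of 38 (median 0.25; 23 and 6, 0.51 with the trend kept), with Son at 296 ± 48.1 and 475 ± 124 CPM (0.66 ± 0.19) and Snrpb at 150.02 ± 22.5 and 107 ± 18.9 CPM (-0.63 ± 0.17). Chromatin regulators had 16 and 6 of 51 (0.13), with Tet3, which oxidizes methylcytosine, at 55.1 ± 12.96 and 95.6 ± 32.2 CPM (1.05 ± 0.27) and Arid2 at 48.6 ± 7.59 and 85.4 ± 28.3 CPM (0.79 ± 0.22). Zinc-finger Zfp genes are poor in GC, and their median of 0.22 (103 higher and 52 lower of 328) became -0.01 (30 and 52) with the trend removed. Zfp787 and Zfp809 lay lower at 44.6 ± 12.04 and 26.2 ± 5.84 CPM (-0.88 ± 0.22) and 14.04 ± 2.22 and 11.4 ± 1.59 CPM (-0.69 ± 0.17), and Zfp24 higher at 26.5 ± 5.97 and 49.6 ± 11.4 CPM (0.55 ± 0.14). Translation factors had 11 and 14 of 65 (-0.04), with Eef1e1 (8.49 ± 1.597 and 18.2 ± 5.601 CPM, 0.80 ± 0.20) and Eif1b (48.1 ± 7.61 and 70.3 ± 16.6, 0.84 ± 0.21) above.

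Proteasome subunits, HECT and RBR ubiquitin ligases and vesicle coats each had more lower than higher members with the trend removed. Over all genes, 13.2% were higher and 12.5% lower. With the trend kept, these lists had 5 higher and 8 lower of 38, 7 and 8 of 27, and 4 and 6 of 30. All genes then had 20.1% higher and 18.3% lower. The counts that follow have the trend removed. Proteasome subunits had 3 higher and 13 lower of 38 (median -0.11), among them Psmd14 (48.1 ± 4.59 and 50.4 ± 4.76 CPM), Psma2 (131 ± 12.7 and 125 ± 11.1) and Psma3 (17.3 ± 1.31 and 16.2 ± 1.79). Their CPM hardly differed, and the log2 fold changes of -0.84 ± 0.23, -0.63 ± 0.18 and -0.61 ± 0.18 arose only on the corrected scale. Ubiquitin ligases of the HECT and RBR families had 0 and 6 of 27 (-0.18), with Rnf31, the catalytic part of the linear ubiquitin complex, at 112, 71.5, 101, 114 and 60.9997 CPM and 44.2, 56.9, 52.3, 49.3 and 62.3 CPM (-0.64 ± 0.16), Smurf1 at 187 ± 26.03 and 106 ± 34.003 CPM (-0.46 ± 0.17) and Nedd4 at 199.9 ± 32.1 and 141 ± 41.5 CPM (-0.67 ± 0.22). Vesicle coats had 3 and 10 of 30 (-0.14), with Copg1 at 102 ± 32.3 and 59.9 ± 16.8 CPM (-0.81 ± 0.24) and Sec24a at 15.4 ± 4.003 and 28.9 ± 6.55 CPM (0.60 ± 0.17). Solute carriers were even, 20 and 17 of 185 (0.01), with Slc25a24, a calcium-regulated ATP carrier of mitochondria, at 38.6 ± 6.93 and 70.001 ± 13.7 CPM without overlap (0.58 ± 0.12). Vacuolar ATPase subunits had 4 and 2 of 19 (0.12), with Atp6ap2 at 133 ± 27.1 and 216 ± 44.9 CPM (0.59 ± 0.16). Lysosomal enzymes had 1 and 0 of 38 (-0.06), the 1 being the protease Ctsl at 212 ± 75.4 and 405 ± 116 CPM (0.68 ± 0.24), while Gaa, the lysosomal α-glucosidase, was at 50.95 ± 10.1 and 31.4 ± 11.6 CPM (-0.30 ± 0.14).

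In lipid and sugar metabolism, cholesterol genes had 2 higher and 8 lower of 28 (median -0.33), beside 13.2% and 12.5% over all genes. Lane differences of the per-library median were -0.01, -0.01 and -0.59, so they came from lane 3, which holds 1 WT library. The covariates added after seeing the data gave 2 and 8 (-0.32) with lane and 0 and 1 (-0.02) with mitochondrial share. Abca1, which exports cholesterol, was at 147, 146, 149.9, 120.5 and 137 CPM in WT and 368, 287, 173, 184 and 201 CPM in Cacnb3-/- without overlap (0.70 ± 0.19), and the synthesis enzymes Mvk and Fdft1 lay on the other side at 28.8 ± 5.67 and 15.4 ± 5.31 CPM (-0.57 ± 0.16) and 30.6 ± 6.25 and 19.6 ± 2.56 CPM (-0.50 ± 0.14). Glycolysis had 0 and 1 of 27 (-0.09). That gene was Gapdh, at 132, 58.8, 364, 487 and 61.3 CPM in WT and 22.6, 45.6, 29.2, 44.9 and 142 CPM in Cacnb3-/- (-1.68 ± 0.60), with s855 and s856 far above the other WT libraries, and Hk1 was at 135 ± 72.1 and 66.2 ± 24.5 CPM (-0.63 ± 0.32). Cell cycle genes had 1 and 3 of 41 (-0.13), with Mcm5 at 17.6 ± 4.44 and 10.8 ± 2.81 CPM (-0.58 ± 0.20) and Tyms at 12.2 ± 4.03 and 9.15 ± 0.525 CPM (-0.55 ± 0.20). The 4 tested genes known to differ between C57BL/6 substrains had 0 and 0 (-0.07). The plot of list medians places all 46 lists with the trend kept and removed.

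**Figure D4:**
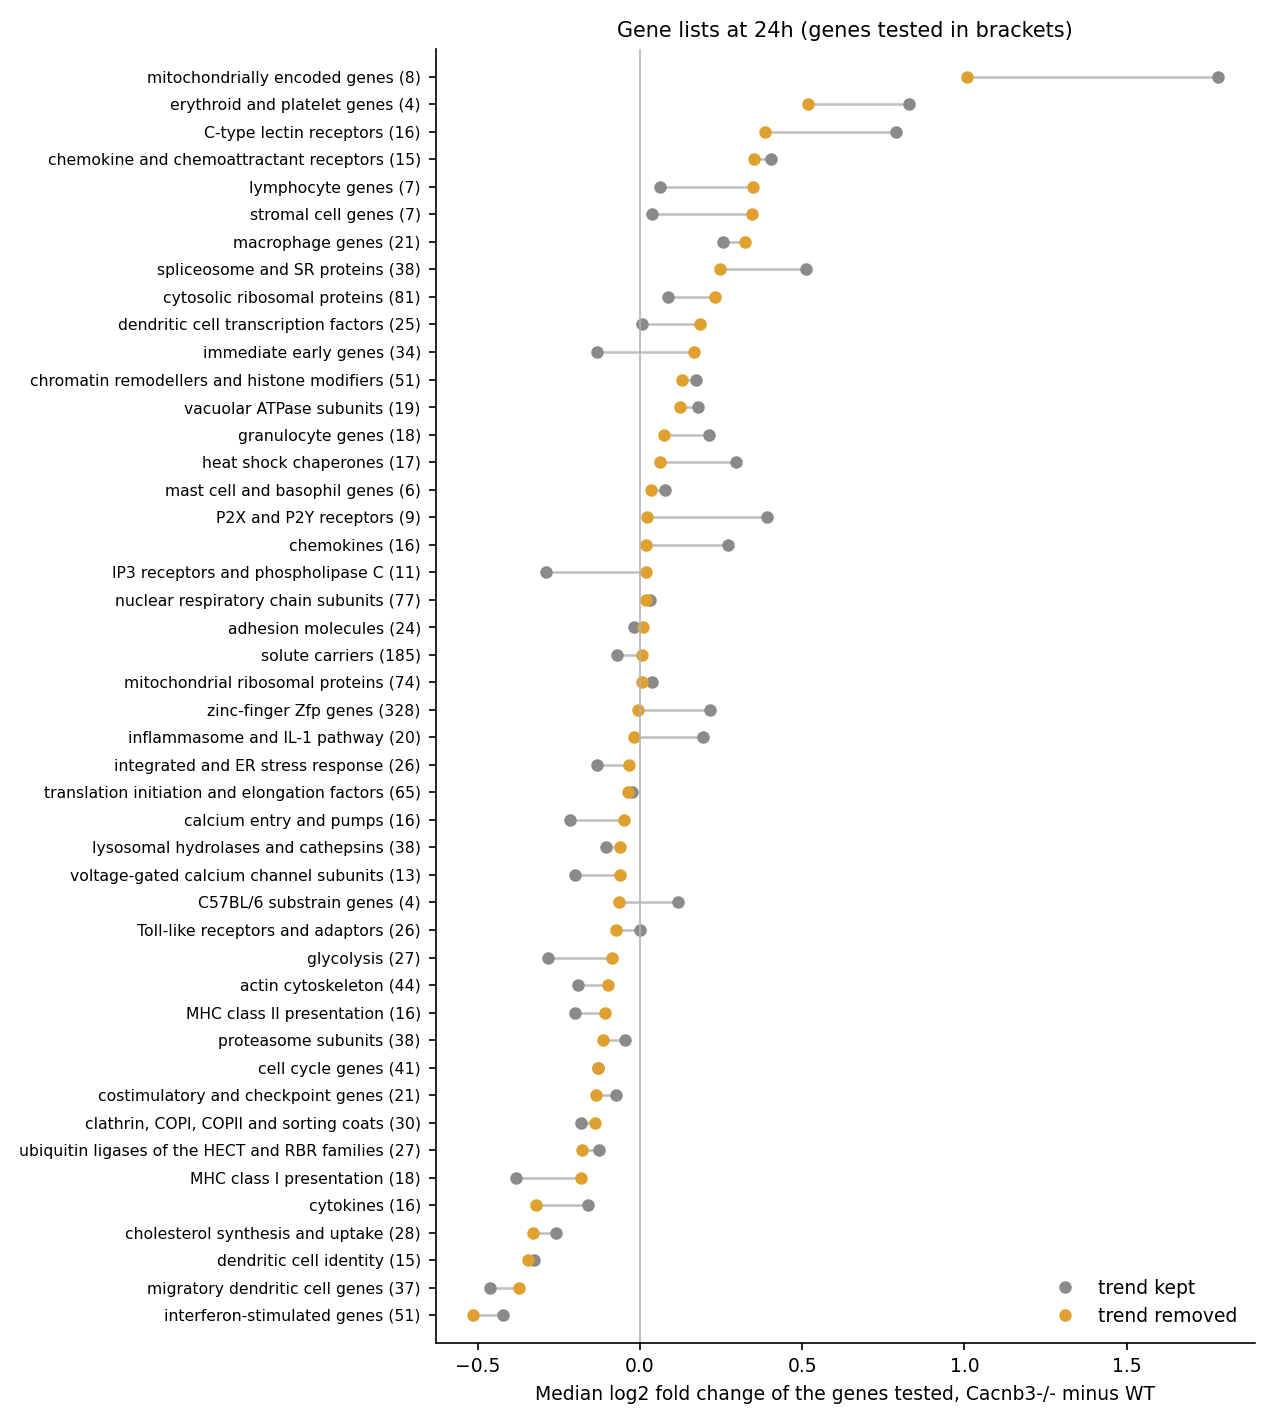
Median log2 fold change (Cacnb3-/- minus WT, 24h) of the tested genes in each of 46 lists, with the GC trend kept (grey) and removed (orange). Interferon-stimulated genes (-0.52) and migratory dendritic cell genes (-0.37) lie at the lower end and mitochondrially encoded genes (1.01) at the upper end with the trend removed.

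Markers of other cell types were counted in both genotypes. Of 24 macrophage genes 21 were tested, 4 higher and 0 lower (median 0.32), and their summed level lay between 3975 and 8233 CPM in WT and between 4422 and 12582 CPM in Cacnb3-/-. Lgmn, an endosomal protease, was at 470.4 ± 59.9 and 589 ± 95.2 CPM (0.43 ± 0.15), and the complement genes C1qa and C1qc at 75.3 ± 29.5 and 99.1 ± 35.1 CPM (0.82 ± 0.29) and at 116 ± 49.5 and 149.7 ± 48.6 CPM (0.75 ± 0.28). All of these overlapped. The lane differences of the macrophage median were 0.18, 0.69 and 0.67. Granulocyte genes, 18 of 22 tested, had 3 and 0, or 16.7%, near the 13.2% of all genes higher (median 0.07; summed 249.5 to 963.7 and 505.9 to 994.6 CPM). With GC content and length in the correction they had 0 and 0 (-0.17). Mmp8 was at 47.3 ± 14.03 and 94.7 ± 37.4 CPM (0.69 ± 0.31) and Stfa2 at 3.55 ± 2.09 and 8.74 ± 2.84 CPM (0.82 ± 0.33). Mast cell and basophil genes, 6 of 11 tested, had 1 and 1 (0.03; 106 to 197 and 127 to 191 CPM), with Gata2 at 9.27 ± 3.47 and 16.3 ± 9.18 CPM (1.31 ± 0.44) and the protease Cpa3 at 2.23 ± 1.55 and 0.984 ± 0.361 CPM (-1.63 ± 0.51). Lymphocyte genes (7 of 22 tested; 110 to 259 and 122 to 242 CPM) had 0 and 0 with a median of 0.35, and stromal genes (7 of 10; 7.75 to 17.99 and 9.49 to 15.6 CPM) 0 and 1 with 0.35. The erythroid and platelet list (4 of 13; 61.6 to 105 and 126 to 260.1 CPM) was the only one of these whose summed level did not overlap, with 2 and 0 and a median of 0.52. At 0 in every library stood 1 macrophage gene and none of the others. The part of these cells in the gene differences was not tested.

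With the trend removed, the per-library medians overlapped between the genotypes for all 46 lists, as the plot of lists by library shows for 6 of them. With the trend kept, the medians of erythroid and platelet genes and of vacuolar ATPase subunits lay higher in every Cacnb3-/- library than in any WT library. With the trend removed, for migratory dendritic cell genes they were 0.21, 0.10, 0.34, 0.20 and -0.13 in WT and -0.46, 0.01, 0.0025, -0.08 and -0.33 in Cacnb3-/-, so that s864 alone kept the groups from separating, and the lane differences were 0.03, -0.53 and -0.52. For dendritic cell identity they were 0.19, 0.09, 0.24, 0.12 and -0.16 in WT and -0.36, 0.03, -0.41, -0.22 and 0.12 in Cacnb3-/-, where s865 lay among WT. The lane differences there were 0.06, -0.03 and -0.57, so they came from lane 3. Adding the mitochondrial share of each library to the fit, an alternative chosen after seeing the data, brought the medians to -0.20 for interferon-stimulated, -0.20 for migratory and -0.06 for identity genes.

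**Figure D5:**
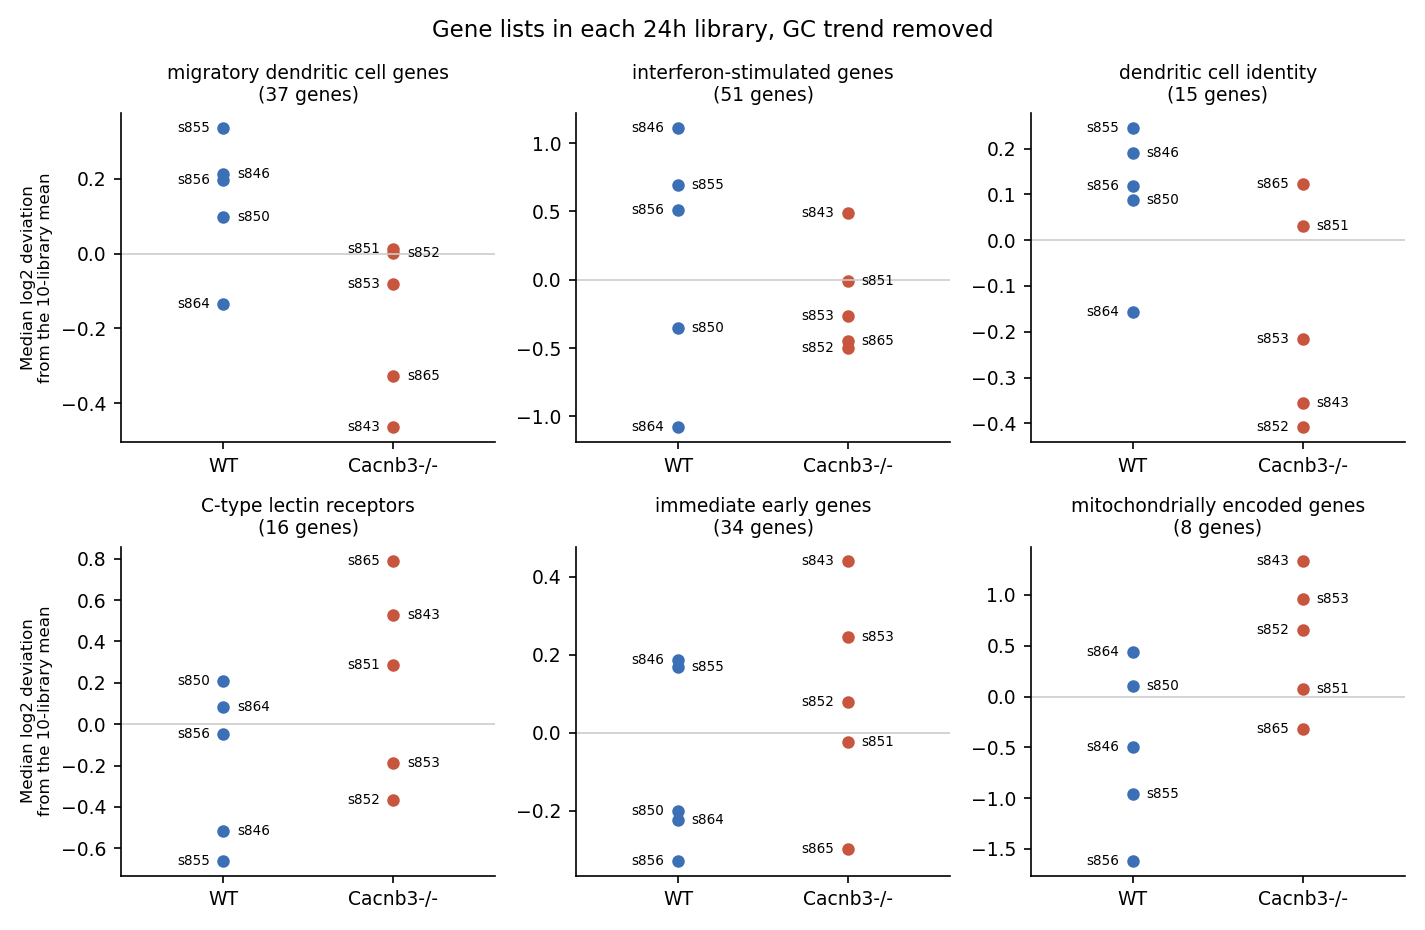
Median log2 deviation of the tested genes of 6 lists from the mean of the 10 libraries, GC trend removed, 1 point per library. The genotypes overlap in each panel, and WT culture s864 is the lowest WT point for migratory, interferon-stimulated and identity genes.

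The libraries named ctrl and 0p5h come from the same cultures, so they are no independent support. Their labels and treatment fields conflict, and they are called by library name. edgeR called 0 genes between the genotypes in each, with the trend kept and removed, and between 2103 and 2161 genes had an unadjusted p under 0.05, against 4877 and 3227 at 24h (the difference was not tested). With the trend removed, 46 of 51 interferon-stimulated genes were lower in Cacnb3-/- at unadjusted p under 0.05 in the ctrl libraries (median -1.10; 8.95% of all genes were lower) and 38 of 50 in 0p5h (-1.03; 8.47%), beside 12 of 51 at 24h (-0.52; 12.5%). Migratory genes had 15 of 37 lower in ctrl (-0.39) and 13 of 37 in 0p5h (-0.36), beside 12 of 37. Maf was at 7.59 CPM in WT and 17.8 CPM in Cacnb3-/- in ctrl, 5.87 and 12.2 CPM in 0p5h and 11.05 and 30.7 CPM at 24h. Il12b was at 332 and 72.2 CPM, 547 and 196 CPM, and 207 and 83.3 CPM. Cacng8 was at 27.7 and 14.1 CPM, 26.8 and 13.6 CPM, and 27.3 and 9.33 CPM, and Ccr2 at 74.5 and 167 CPM, 54.4 and 125 CPM, and 37.9 and 175 CPM (means of 5 libraries each). Of the 24 genes named above, all 12 of the higher and 11 of the 12 lower had the same sign in ctrl and in 0p5h with the trend removed, and Cth, the remaining gene, was not tested there, but the groups were free of overlap at only 2 and 1 genes in ctrl and at 1 and 1 in 0p5h.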

How the data were processed

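RNA was extracted from BMDC cultures, and poly(A) libraries were made with a stranded TruSeq kit. The authors deposited raw counts per gene and library, made by STAR 2.4 alignment and, per the file header, featureCounts 1.5.1 on read-1 alignments with exons of Ensembl GRCm38 and no strand option. With no option set, featureCounts leaves out reads that overlap several genes or map to several places. The build and sequencer given in the methods differ from those in the labels, and coordinates are those of the table. Of 43629 gene IDs, 89.4% had a symbol in GENCODE M39.

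The 10 libraries were compared in R 4.3.3 with edgeR 4.0.16 (TMM, filterByExpr with a minimum count of 10, quasi-likelihood test, Benjamini-Hochberg adjustment), as the main test. DESeq2 1.42.0, which the authors' methods name, and limma 3.58.1 (voom) were alternatives. A call needs an adjusted p under 0.05 and a 2-fold change. The GC trend of each library was a natural spline with 5 degrees of freedom of its log2 CPM (prior count 2), as deviation from the 10-library mean, on GC content of the longest GENCODE transcript, and it entered the fit as an offset. It left out 117 genes without a GC value. The scripts were tested on simulated data with known fold changes.

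Library totals were 8237393 to 24168253 counts. Permutation tests over libraries were exact and two-sided. Named genes were Cacnb3, Nnt and genes within 1 Mb, the 12 per direction with the largest change among genes without overlap in both fits, up to 3 per list with the smallest p with the trend removed, and the 5 per direction that moved most on removal. Some genes that these rules pick are not reported here. The 4 genes with printed promoters were added. The comparison, the 46 lists and the rules were chosen with earlier results of these data known. RefSeq promoters were searched on both strands.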

Additional observations from a re-analysis of the deposited data

Results flagged for a closer look

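Of 288 groups of 5 libraries checked, 27 held a library far from the other 4 by Dixon's criterion, which flags about 1 group in 20 by chance. Of these, 8 lay in Cacnb3-/- culture s843, 6 in Cacnb3-/- culture s865, 6 in WT culture s856, 3 in Cacnb3-/- culture s853, 2 in WT culture s855 and 1 each in s851 and s864. The groups share libraries and are not independent.

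In Cacnb3-/- culture s843, the library with the lowest total and the highest mitochondrial share, 6 genes stood high. Spry2 was at 6.01 CPM (the others at 1.48 to 2.17), Pf4 at 169.5 (63.8 to 85.1), Klf2 at 63.1 (15.5 to 29.2), Fos at 54.2 (17.5 to 27.4), Clec9a at 2.81 (1.19 to 1.44) and Cd200r1 at 97.8 (55.9 to 64.1). Psma3 at 13.1 CPM (16.4 to 17.6) and Myl12a at 175 CPM (268 to 298) stood low there. In s865 the GC slope of 0.149 stood against -0.445 to -0.280 in the others, and Gaa at 51.6 CPM (24.6 to 30.7), Gapdh at 142 (22.6 to 45.6), Snrpb at 140.5 (92.5 to 102) and Itpr3 at 17.4 (8.43 to 10.5) lay above the other Cacnb3-/- libraries, while Bcl2 at 2.51 (3.56 to 3.95) lay below. The remaining Cacnb3-/- values were Gm27003 at 1.48 CPM, Cth at 0.296 and Cacng7 at 0.494, all in s853, and Dtx3l at 80.8 in s851.

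Among WT libraries s856, with the steepest GC slope, was far from the rest at Relb with 1420 CPM (744 to 864.2), Zfp787 with 66.1 (38.0 to 40.3), Snrpb with 190.2 (139 to 141), Orai1 with 45.5 (28.4 to 33.2), Shb with 29.9 (19.1 to 21.8) and, on the low side, Bag3 with 47.6 (62.5 to 65.8). Il12b at 409 CPM (133 to 187) and Tyms at 19.2 CPM (9.27 to 11.5) stood high in s855, and Fkbp11 at 1.81 CPM (0.542 to 0.777) in s864. The cause was not tested for any of these values.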

How the results depend on the processing

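No paired analysis was possible because the culture numbers in the names are not shared between the genotypes. For the genotype difference at 24h, GC trend kept, 0 genes were called. DESeq2 called 539, no filter on low counts gave 376, all 30 libraries in 1 fit 615, counts thinned to the lowest total 264, and DESeq2 on all genes with a count, added after seeing the data, 606. Leaving out 1 library gave 0 to 1129 calls (733 without WT s864, 1129 without Cacnb3-/- s865). For the genotype difference at 24h, GC trend removed, 0 became 139 with DESeq2, 216 with all 30 libraries, 221 with DESeq2 on all genes with a count, and 0 to 363 on leaving out 1 library (363 without s865, which include 123 of the 139 DESeq2 calls, 88.5%). Voom, DESeq2's size factors, no fold minimum, no X and Y genes, sex, and, added after seeing the data, lane or mitochondrial share as a covariate called 0 in both fits, and no filter, thinning, GC bins, 10 spline degrees of freedom and GC with length called 0 with the trend removed. Unadjusted p under 0.05 remained at 2053 genes with lane and 226 with mitochondrial share as covariate (trend removed).

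Log2 fold changes with the trend removed changed sign as follows. Shb went to -0.078 with voom, -0.24 without a filter and with DESeq2 on all genes, -0.016 with 30 libraries, -0.0093 with sex, -0.081 with lane, -0.040 with GC bins and lay between -0.12 and 0.071 without single libraries. Phf14 went to 0.13 without a filter and with DESeq2 on all genes, Rnf138 to 0.42 with both, 0.019 with GC and length and 0.24 with GC bins, and Znhit2 to -0.14 and -0.13. Crocc went to 0.072 with thinning and 0.077 with GC and length, and lay between -0.19 and 0.049 without single libraries. With mitochondrial share as a covariate the values were 0.0053 for Phf14, 0.15 for Rnf138, -0.14 for Lrif1, -0.086 for Gm17066, 0.24 for Crocc, 0.069 for Kcnh3, 0.015 for Ciita, 0.11 for H2-Eb2, -0.11 for mt-Nd4, -0.19 for mt-Nd1, -0.14 for mt-Co1, 0.0045 for Gaa, 0.23 for Gapdh, 0.29 for Hk1 and 0.061 for P2rx4. List medians turned to -0.087 (trend kept) and -0.25 for mitochondrially encoded genes, 0.069 for MHC class II, -0.064 for immediate early (-0.012 with lane), -0.064 for lymphocyte, -0.071 for stromal, -0.036 for spliceosome and -0.049 for chromatin genes. The mitochondrial share is made of the counts of mitochondrially encoded genes. Adjusting for it takes up their own difference, so it cannot check that list or mt-Nd1, mt-Nd4 and mt-Co1. Medians within 0.1 of 0 that turned included granulocyte genes, -0.17 with GC and length, and chemokines, -0.05 with GC and length, -0.03 with lane and -0.04 with mitochondrial share. The cause was not tested.

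By the authors' methods genotype is confounded with substrain, and mitochondrial share and GC slope differ between the genotypes, so their parts cannot be told apart. With 5 libraries per genotype, genes near 1 CPM rest on few counts.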
